A study of Homo sapiens with 2 samples.

Results

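The 33 genes described here encode the machinery that carries secretory and membrane proteins into the endoplasmic reticulum (ER): subunits of the signal recognition particle (SRP) and its receptor, the SEC61 channel with its partners, the translocon-associated protein complex, signal peptidase and the oligosaccharyltransferase. They were chosen by symbol and not by a cut on their measured values, though with earlier results of these data known. All 33 were found, each as a single entry, among the 51773 gene symbols analysed. RNA-seq was run on 22Rv1 cells, an established line of castration-resistant human prostate cancer. One group (shEIF3F) expressed a short hairpin RNA against EIF3F, a gene for one subunit of the translation initiation factor eIF3, and the other (shCON) an shRNA vector control. Each group had 1 library. The labels name a single hairpin without its sequence, and give no time after its introduction, so other effects of that hairpin cannot be told apart from loss of EIF3F.

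A signal sequence that emerges from the ribosome is bound by SRP, which pauses elongation and takes the ribosome to the SRP receptor on the ER membrane. The nascent chain then passes through the SEC61 channel, signal peptidase removes the signal sequence, and the oligosaccharyltransferase attaches a preassembled glycan to asparagine residues. Prostate luminal cells are secretory cells, and their best-known products, such as prostate-specific antigen, are glycoproteins made by this route.

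Values are TPM (a transcript abundance corrected for transcript length and expressed relative to the whole library), so levels of different genes can be set against each other within a library. Each difference is given as a log2 ratio, log2((shEIF3F TPM + 1) / (shCON TPM + 1)), in which 1 and -1 mark a 2-fold difference and low genes are understated. Without replicates there is no error, test or p-value for any of them, and the read depth behind a TPM value is unknown. EIF3F itself was at 17.0 TPM in shEIF3F and 991 TPM in shCON, or 1.72% of the control level. The 13308 genes tested averaged 1 TPM or more over both libraries. Their median log2 ratio was -0.36, and the 100 most abundant took 59.7% of all TPM in shEIF3F and 45.4% in shCON. A ratio "relative to all genes" has that median subtracted, which adds 0.36. The 8 luminal epithelial markers summed to 905 TPM in shEIF3F and 829.6 TPM in shCON, with KLK3, which encodes prostate-specific antigen, at 1.94 TPM in shEIF3F and 9.71 TPM in shCON. The 8 markers of endothelial cells, fibroblasts and leukocytes summed to 5.38 TPM in shEIF3F and 13.1 TPM in shCON, nearly all of it from the proteoglycan gene DCN (4.86 TPM in shEIF3F, 12.9 TPM in shCON), while VWF, CDH5 and PDGFRA were listed at 0 in both. In such bulk RNA, fewer cells of a type and less RNA per cell cannot be told apart.

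The median of these genes lay close to that of all genes, while single subunits of the same complex differed in opposite directions. In shEIF3F, 5 of the 33 were at least 2-fold lower (MAGT1, STT3A, SRPRB, SEC61B and DAD1), against a background of 25.5% of all genes tested. SRP19 was the 1 gene at least 2-fold higher, against a background of 8.44%. The 5 lower genes are 15.2% of the list and the 1 higher gene 3.03%, both below the background as deposited. The other 27 genes (81.8%) were within 2-fold, against 66.0% of all genes tested. The median log2 ratio of the list was -0.40, close to the -0.36 of all genes, and its members ran between -1.99 and 1.48. Relative to all genes, 2 members were at least 2-fold lower (MAGT1 and STT3A, background 16.0%) and 3 higher (SRP19, SSR1 and SRP14, background 14.7%). With both libraries rescaled to the TPM outside the 100 most abundant genes, MAGT1 alone remained 2-fold lower (background 16.1%), with SRP19, SSR1 and SRP14 higher (background 14.8%). With the trend of ratios with transcript GC content removed, 6 members (18.2%) were lower, above a background of 13.9%, and SRP19 was higher (background 13.2%). Those 6 were MAGT1, STT3A, SRPRB, SRP9, SEC62 and SPCS3, without SEC61B and DAD1, and the list median was then -0.21 where that of all genes is 0. The 33 genes summed to 4863 TPM in shEIF3F and 5485 TPM in shCON, which is 0.489% of the shEIF3F total and 0.553% of the shCON total.

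**Figure D1:**
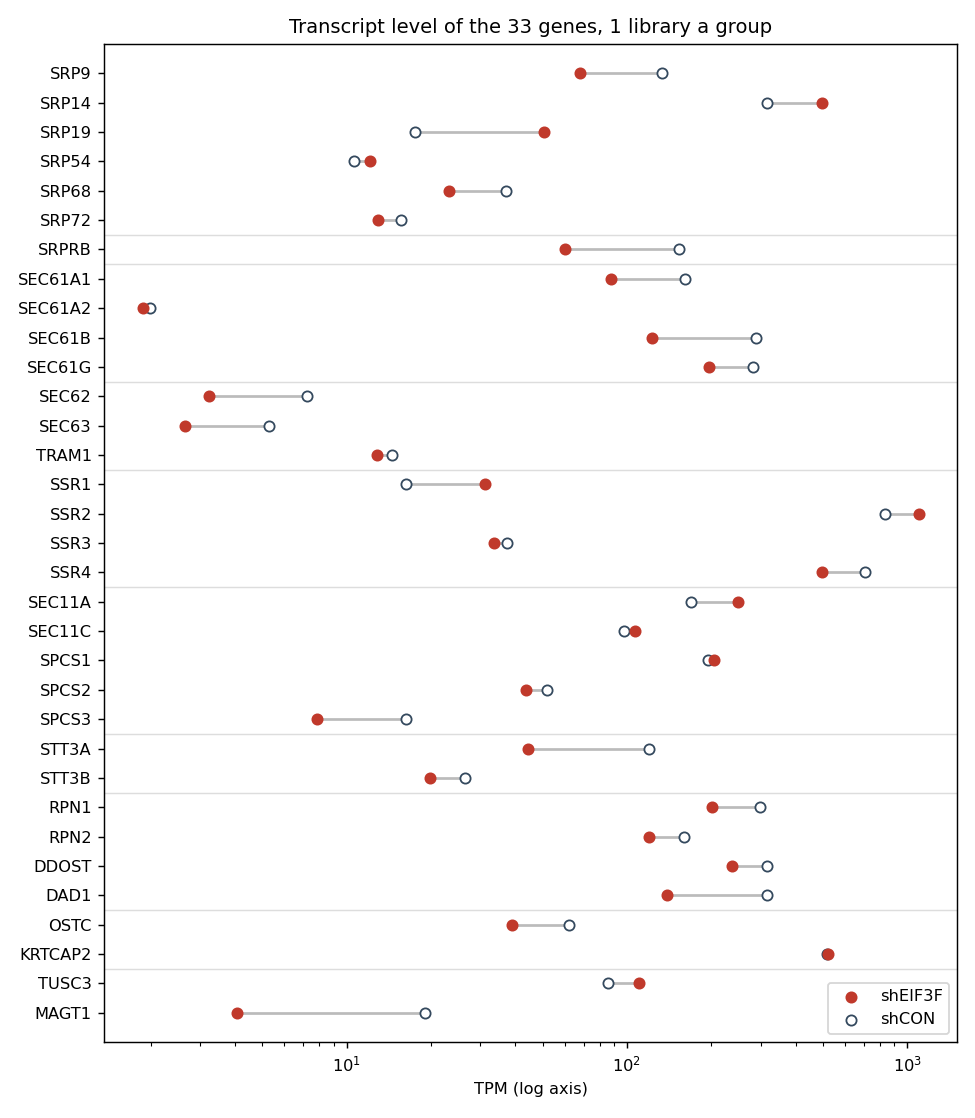
TPM of each of the 33 genes on a log axis, in shEIF3F (filled red) and shCON (open), 1 library each, with lines between groups of related subunits. The levels span 1.88 to 1099 TPM in shEIF3F and 1.99 to 832 TPM in shCON, and MAGT1 has the widest gap between its points.

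These transcripts were abundant and differed widely in level. Their median was 60.1 TPM in shEIF3F and 97.3 TPM in shCON, where the median of all genes tested was 6.42 TPM in shEIF3F and 8.83 TPM in shCON. More than 100 TPM was listed for 14 of them in shEIF3F and 16 in shCON, while fewer than 10 TPM was listed for 5 in shEIF3F and 3 in shCON. SSR2 was the most abundant in both libraries, and SEC61A2 the least. The order of the levels was much the same in both libraries (Spearman's rho 0.952 over the 33 genes, which share 2 libraries, as a description).

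The upstream sequences of the gene with the highest ratio and of the 3 genes with the lowest ratios are shown because these 4 genes set the extremes of the list. Each is the stretch of 250 bases before the annotated start, 5′ to 3′ on the gene's own strand, from RefSeq in build GRCh38.p14. SRP19 lies at chr5:112861037-112861286 on the plus strand, MAGT1 at chrX:77895436-77895685 on the minus strand, STT3A at chr11:125592602-125592851 on the plus strand and SRPRB at chr3:133805565-133805814 on the plus strand. Capitals mark matches on either strand to the CCAAT box (CCAAT), the unfolded protein response element (TGACGTGG) or the C/EBP-ATF response element (TGATGNAA).
SRP19: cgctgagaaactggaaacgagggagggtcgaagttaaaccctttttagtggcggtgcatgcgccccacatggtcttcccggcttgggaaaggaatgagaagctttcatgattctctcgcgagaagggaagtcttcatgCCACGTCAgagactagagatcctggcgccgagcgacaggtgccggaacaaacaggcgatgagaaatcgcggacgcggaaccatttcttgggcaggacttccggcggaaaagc
MAGT1: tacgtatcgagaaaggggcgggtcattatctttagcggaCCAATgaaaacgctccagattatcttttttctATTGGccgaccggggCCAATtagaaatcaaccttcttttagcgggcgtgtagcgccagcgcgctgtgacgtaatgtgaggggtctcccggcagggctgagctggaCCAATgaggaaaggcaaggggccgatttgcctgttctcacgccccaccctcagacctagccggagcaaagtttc
STT3A: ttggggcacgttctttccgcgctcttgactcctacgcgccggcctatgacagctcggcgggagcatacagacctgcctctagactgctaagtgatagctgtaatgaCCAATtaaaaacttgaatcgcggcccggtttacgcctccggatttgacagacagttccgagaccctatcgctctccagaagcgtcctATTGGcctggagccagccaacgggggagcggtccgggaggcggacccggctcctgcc
SRPRB: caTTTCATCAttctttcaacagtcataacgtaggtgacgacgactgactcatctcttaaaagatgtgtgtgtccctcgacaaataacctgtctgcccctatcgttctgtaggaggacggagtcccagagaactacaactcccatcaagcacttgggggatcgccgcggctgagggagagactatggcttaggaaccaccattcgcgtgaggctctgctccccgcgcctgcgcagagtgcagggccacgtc
SRP19 held a match to the unfolded protein response element, MAGT1 held 4 CCAAT boxes, STT3A held 2, and SRPRB held a match to the C/EBP-ATF element. RefSeq gave such a window for 28 of the 33 genes. A CCAAT box was found in 14 of the 28 (50.0%) and in 33.04% of all 27305 windows of that length (35.6% of the 9310 windows of genes tested), and 4 or more CCAAT boxes in MAGT1 alone of the 28 and in 0.93% of all windows. The unfolded protein response element was in 2 of 28, SRP19 and SEC62, and in 0.667% of all windows (0.72% of those of genes tested). These 2 genes had log2 ratios of 1.48 and -0.95. The C/EBP-ATF element was in 1 of 28 (3.57%), in 3.19% of all windows and in 1.17% of those of genes tested, and the E-box CACGTG in 4 of 28 (14.3%), in 6.49% of all and in 9.36% of those of genes tested. The ER stress element, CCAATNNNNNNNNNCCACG, whose first 5 bases are also a CCAAT box, was in 0 of the 28 windows, in 0.0806% of all and in 0.14% of those of genes tested. It was in 4 of 56 windows of related ER genes, those of HSPA5, CALR, CANX and ALG12. A match is a run of letters and not a shown binding site.

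Among the 6 protein subunits of SRP, 3 had ratios above 0 and 3 below as deposited, and 4 were above 0 relative to all genes, where SRP72 had 0.11. SRP19, which helps assemble the particle on its RNA so that SRP54 can bind, was at 50.7 TPM in shEIF3F and 17.6 TPM in shCON. Its level was 2.89 times that of the control (log2 ratio 1.48, 1.84 relative to all genes), higher than 95.9% of all ratios. SRP54, the GTPase that binds the signal sequence, was at 12.1 TPM in shEIF3F and 10.7 TPM in shCON (0.17). The SRP68 and SRP72 proteins bind each other and the RNA. SRP68 was at 23.1 TPM in shEIF3F and 37.2 TPM in shCON (-0.66), and SRP72 at 13.0 TPM in shEIF3F and 15.6 TPM in shCON (-0.25). The exons of SRP19 overlap those of REEP5 on the opposite strand in GENCODE 29. REEP5 was at 37.5 TPM in shEIF3F and 37.3 TPM in shCON, and the use of strand in counting is not given in the sources used here, so a part of SRP19's reads could belong to REEP5.

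SRP9 and SRP14 form the dimer on the Alu domain of SRP that slows elongation. SRP14 was at 497 TPM in shEIF3F and 315 TPM in shCON (log2 ratio 0.65), just past 2-fold relative to all genes (1.01). SRP9 was at 68.3 TPM in shEIF3F and 133 TPM in shCON (-0.95, or -1.02 with the GC trend removed). The partners thus differed in opposite directions, with 7.28 SRP14 transcripts per SRP9 transcript in shEIF3F and 2.37 in shCON. The SRP9 value is uncertain, however, because the processed pseudogene SRP9P1 was listed at 128 TPM in shEIF3F and 40.2 TPM in shCON, the opposite direction (1.65). SRP9 and SRP9P1 together were at 196 TPM in shEIF3F and 173 TPM in shCON, which turns the ratio from -0.95 into 0.18 and puts SRP14 at 2.53 per SRP9 in shEIF3F and 1.82 in shCON. The pseudogene made up 65.3% of that sum in shEIF3F and 23.2% in shCON. Whether the reads were divided between the gene and its copy in the same way in both libraries was not tested. Among the 9 members with pseudogenes named after them in GENCODE (25 pseudogenes), only SSR4 (3.81 TPM in shEIF3F, 1.98 TPM in shCON) and OSTC (0.15 TPM in shEIF3F, 0 in shCON) also had any TPM listed for these copies.

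**Figure D2:**
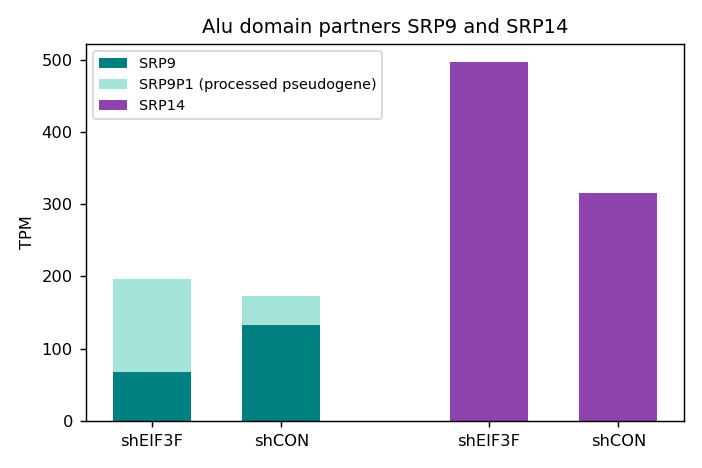
TPM of SRP9 with its processed pseudogene SRP9P1 stacked on it, and of SRP14, in shEIF3F and shCON, 1 library each. The SRP9 part is smaller in shEIF3F (68.3 against 133 TPM), whereas the stack with SRP9P1 is slightly taller (196 against 173 TPM).

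Both subunits of the SRP receptor were at least 2-fold lower in shEIF3F as deposited, against a background of 25.5% of all genes tested. SRPRB, the membrane-anchored GTPase subunit, was at 60.1 TPM in shEIF3F and 153 TPM in shCON (log2 ratio -1.33). Its partner SRPRA, the subunit that docks SRP and belongs to the lists of related genes, was at 33.5 TPM in shEIF3F and 103 TPM in shCON (-1.59). Relative to all genes SRPRA stayed past 2-fold (-1.23) and SRPRB came just short of it (-0.98, background 16.0%). After rescaling they had -1.16 and -0.90 (background 16.1%). Their ratios were close, so that there were 1.79 SRPRB transcripts per SRPRA transcript in shEIF3F and 1.49 in shCON. SRPRB exons overlap those of RAB6B on the opposite strand, at 5.69 TPM in shEIF3F and 6.39 TPM in shCON.

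The 4 genes of the SEC61 channel all had ratios below 0 as deposited, but only SEC61B passed 2-fold, and SEC61A2 was above 0 relative to all genes (0.30). SEC61B, the small beta subunit, was at 123 TPM in shEIF3F and 289 TPM in shCON (log2 ratio -1.23, -0.87 relative to all genes). SEC61A1, the pore-forming alpha subunit, was at 87.7 TPM in shEIF3F and 161 TPM in shCON (-0.87, -0.51 relative to all genes). SEC61G, the gamma subunit that clamps the pore, was at 196 TPM in shEIF3F and 282 TPM in shCON (-0.52). The small subunits were level with each other in the control, with 0.976 SEC61G transcripts per SEC61B transcript in shCON and 1.59 in shEIF3F. SEC61A2, a second alpha subunit, was at 1.88 TPM in shEIF3F and 1.99 TPM in shCON, which is 2.1% of the alpha subunit pair in shEIF3F and 1.22% in shCON. SEC61A1 exons overlap those of RUVBL1 on the opposite strand, which was at 107 TPM in shEIF3F and 151 TPM in shCON, and SEC61A2 exons those of NUDT5 (24.2 TPM in shEIF3F, 24.5 TPM in shCON), so the SEC61A2 level in particular is uncertain.

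The partners of the channel were scarce. SEC62, which serves post-translational entry of short chains, was at 3.24 TPM in shEIF3F and 7.19 TPM in shCON (log2 ratio -0.95). SEC63, which recruits the chaperone BiP to the channel, was at 2.66 TPM in shEIF3F and 5.30 TPM in shCON (-0.78). Both ratios lie near -1 and are understated by the pseudocount, and SEC62 was past 2-fold with a pseudocount of 0.1 (-1.13) or with the GC trend removed (-1.02), but at -0.59 relative to all genes and -0.57 with a pseudocount of 5. SEC63 was at -0.43 relative to all genes. TRAM1, a membrane protein that contacts nascent chains as they leave the pore, was at 12.8 TPM in shEIF3F and 14.5 TPM in shCON (-0.17).

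Subunits of the translocon-associated protein complex, which sits beside the channel and helps certain signal sequences to open it, went both ways. SSR1 (alpha) was at 31.1 TPM in shEIF3F and 16.4 TPM in shCON (log2 ratio 0.89), and passed 2-fold relative to all genes (1.25). SSR2 (beta) was at 1099 TPM in shEIF3F and 832 TPM in shCON (0.40). SSR3 (gamma) was at 33.6 TPM in shEIF3F and 37.3 TPM in shCON (-0.15). SSR4 (delta) was at 496 TPM in shEIF3F and 705 TPM in shCON (-0.51, -0.15 relative to all genes). Its ratio was 0.43 once the trend with transcript GC content was removed. That step also sets the median of all genes to 0, so -0.15 is the value to set beside it. With 62.9% GC, SSR4 had the highest GC content of the 33 transcripts. The 4 levels summed to 1660 TPM in shEIF3F and 1591 TPM in shCON. The exons of SSR4 overlap those of IDH3G on the opposite strand (137 TPM in shEIF3F, 116 TPM in shCON).

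Signal peptidase, which cuts the signal sequence off, was within 2-fold in all 5 genes as deposited, although SPCS3 passed it with a pseudocount of 0.1 (-1.05) or with the GC trend removed (-1.04) and was further from it relative to all genes (-0.61) or with a pseudocount of 5 (-0.73). Its alternative catalytic subunits SEC11A and SEC11C were at 248 and 107 TPM in shEIF3F, against 169 and 97.3 TPM in shCON (log2 ratios 0.55 and 0.14). SEC11A made up 69.9% of that pair in shEIF3F and 63.5% in shCON. SPCS1, an accessory subunit, was at 205 TPM in shEIF3F and 195 TPM in shCON (0.07). SPCS2, another accessory subunit, was at 43.6 TPM in shEIF3F and 52.1 TPM in shCON (-0.25). SPCS3, an accessory subunit needed for catalysis, was the lowest of the 5 in both libraries and in ratio, at 7.82 TPM in shEIF3F and 16.3 TPM in shCON (-0.97). The exons of SPCS1 overlap those of GLT8D1 (9.42 TPM in shEIF3F, 31.0 TPM in shCON) and NEK4 on the opposite strand.

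**Figure D3:**
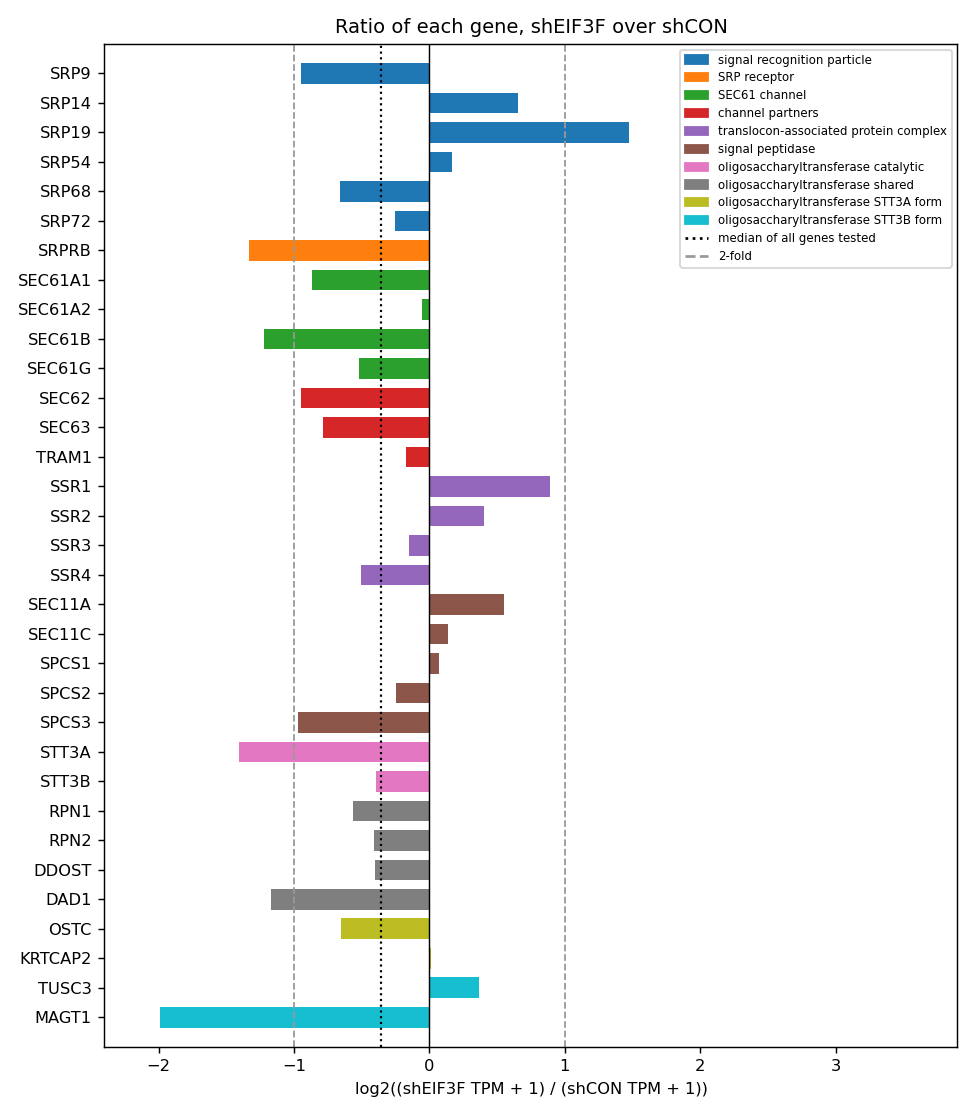
Log2 ratio of each of the 33 genes, shEIF3F over shCON, as bars coloured by group of subunits, with dashed lines at 2-fold and a dotted line at the median of all genes tested (-0.36). MAGT1 (-1.99), STT3A (-1.41), SRPRB (-1.33), SEC61B (-1.23) and DAD1 (-1.17) lie beyond -1 and SRP19 (1.48) beyond 1.

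The oligosaccharyltransferase exists in an STT3A form, which acts on chains as they pass through the channel, and an STT3B form, which acts on sites that were skipped. Of its 10 genes in the list of 33, 3 (30.0%, background 25.5%) were at least 2-fold lower and 0 higher. The median log2 ratio of these 10 was -0.49 (-0.13 relative to all genes). Their count of lower genes was 2 relative to all genes (background 16.0%) and 1 after rescaling (background 16.1%). These counts leave out the subunits TMEM258 and OST4, which were measured with the related genes. TMEM258 was at least 2-fold lower as deposited (-1.75), relative to all genes (-1.39) and after rescaling (-1.32). OST4 was within 2-fold on the same scales (-0.33, 0.03 and 0.10). STT3A, the catalytic subunit of the first form, was at 44.4 TPM in shEIF3F and 120 TPM in shCON (-1.41, -1.05 relative to all genes, -0.98 after rescaling). STT3B, the other catalytic subunit, was at 19.9 TPM in shEIF3F and 26.4 TPM in shCON (-0.39). The share of STT3A in the summed TPM of both was thus 69.1% in shEIF3F and 81.9% in shCON. STT3A shares exon sequence on the same strand with CHEK1, a cell cycle checkpoint kinase gene that was at 2.89 TPM in shEIF3F and 19.8 TPM in shCON. The part of those reads in the STT3A value was not tested.

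The oxidoreductase subunits of the STT3B form, MAGT1 and TUSC3, differed more in ratio than any other pair of paralogues in the list. MAGT1 was at 4.06 TPM in shEIF3F and 19.1 TPM in shCON, or 21.2% of the control level (log2 ratio -1.99, -1.63 relative to all genes), lower than 93.3% of all ratios. TUSC3 was at 111 TPM in shEIF3F and 85.8 TPM in shCON (0.37, 0.72 relative to all genes). Because TUSC3 was the more abundant of the pair in both libraries, their sum was 115 TPM in shEIF3F and 105 TPM in shCON. The share of TUSC3 in that sum was 96.5% in shEIF3F and 81.8% in shCON. Neither gene shares an exon with another gene in GENCODE 29 or has a pseudogene named after it.

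**Figure D4:**
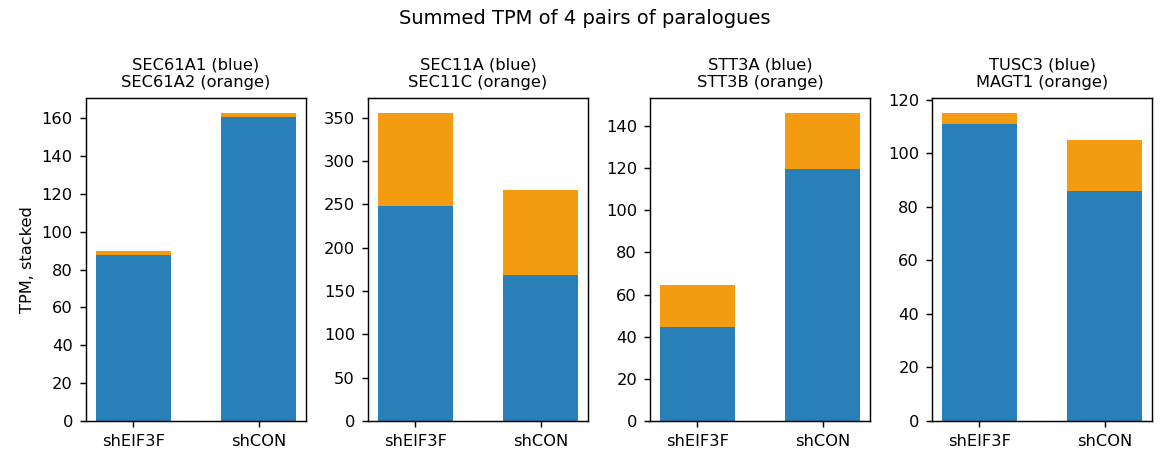
Stacked TPM of 4 pairs of paralogues in shEIF3F (left bar) and shCON (right bar), 1 library each, with the first-named gene in blue and the second in orange. The orange MAGT1 part shrinks to 4.06 TPM in shEIF3F against 19.1 TPM in shCON while the pair's total stays at 115 and 105 TPM, and the STT3A and STT3B stack is 64.3 TPM in shEIF3F against 146 TPM in shCON.

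The 4 members of the list that encode subunits shared by both forms all had ratios below 0 as deposited and relative to all genes. After rescaling, RPN2 and DDOST were just above 0 (0.02 and 0.03). TMEM258 and OST4, oligosaccharyltransferase subunits counted with the related genes, had -1.75 and -0.33 as deposited (-1.39 and 0.03 relative to all genes). DAD1, a small subunit first known as a defender against cell death, was at 140 TPM in shEIF3F and 316 TPM in shCON (log2 ratio -1.17, -0.82 relative to all genes). DDOST was at 238 TPM in shEIF3F and 315 TPM in shCON (-0.40), so that there were 1.71 DDOST transcripts per DAD1 transcript in shEIF3F and 0.998 in shCON. The ribophorin genes RPN1 and RPN2 were at 202 and 120 TPM in shEIF3F, against 299 and 160 TPM in shCON (-0.56 and -0.41). These last 3 ratios lay within 0.21 of the median of all genes. Of the subunits particular to the STT3A form, OSTC was at 39 TPM in shEIF3F and 62.0 TPM in shCON (-0.66). KRTCAP2 was at 523 TPM in shEIF3F and 519 TPM in shCON (0.01), and was the most abundant of the 10 in both libraries.

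The related genes of ER entry and glycosylation, 69 in 6 lists, had log2 ratios between -2.35 and 1.48. Of these, 13 (18.8%) were at least 2-fold lower and 3 (4.35%) higher as deposited, both below the 25.5% and 8.44% of all genes tested, with a median of -0.42. Relative to all genes 7 (10.1%, background 16.0%) were lower and 9 (13.0%, background 14.7%) higher. Of 9 remaining subunits and partners, 2 (22.2%, background 25.5%) were at least 2-fold lower, SRPRA, given above, and TMEM258. TMEM258, an oligosaccharyltransferase subunit, was at 134 TPM in shEIF3F and 454 TPM in shCON (-1.75). The highest ratios of that list were -0.16 for the signal peptide peptidase HM13 and -0.24 for SIL1, a nucleotide exchange factor of BiP.

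Genes that build the lipid-linked glycan had 4 of 24 members (16.7%, background 25.5%) at least 2-fold lower and 1 (4.17%, background 8.44%) higher. Relative to all genes 3 (12.5%, background 16.0%) were lower and 3 (12.5%, background 14.7%) higher. The counts were the same after rescaling (backgrounds 16.1% and 14.8%). With a pseudocount of 5, for which no background was computed, 1 was lower and 0 higher. DPM3, which anchors dolichol-phosphate mannose synthase, was at 138 TPM in shEIF3F and 477 TPM in shCON (log2 ratio -1.79). ALG14, part of the enzyme that adds the second sugar, was at 5.43 TPM in shEIF3F and 1.42 TPM in shCON (1.41), and the mannosyltransferase gene ALG2 at 21.0 TPM in shEIF3F and 11.4 TPM in shCON (0.83). ALG10 was at 0.15 TPM in shEIF3F and 2.66 TPM in shCON (-1.67). Its near-identical copy ALG10B was lower as well, at 0.25 TPM in shEIF3F and 2.85 TPM in shCON (-1.62). Both are among the 4 lower genes, and their single values are uncertain because the copies are alike and their levels low. In the list of glycan trimming and the calnexin cycle, 3 of 10 (30.0%, close to the background of 25.5%) were at least 2-fold lower and 0 higher, with PDIA3, a disulfide isomerase of glycoprotein folding, at 158 TPM in shEIF3F and 378 TPM in shCON (-1.25) and the mannosidase MAN1B1 at -1.17. The highest ratios were 0.52 for the deglycosylating enzyme NGLY1 and -0.10 for UGGT2. None of the 10 passed 2-fold relative to all genes (backgrounds 16.0% lower and 14.7% higher), where PDIA3 had -0.90 and MAN1B1 -0.81.

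The other routes into the ER membrane were divided as well. In the ER membrane protein complex, which inserts certain transmembrane segments, EMC9 was at 15.6 TPM in shEIF3F and 83.2 TPM in shCON (log2 ratio -2.35) and EMC6 had a ratio of -0.91. Its subunit EMC3 was at 34.6 TPM in shEIF3F and 11.8 TPM in shCON (1.48), and EMC7 had a ratio of 0.81, so 1 of 10 was at least 2-fold lower (10%, background 25.5%) and 1 higher (10%, background 8.44%). Relative to all genes 3 (30%, background 14.7%) were higher, EMC3 (1.83), EMC7 (1.17) and EMC1 (1.02). Of 8 genes for insertion of tail-anchored and related proteins, TMEM208 (-1.04) alone was at least 2-fold lower (12.5%, background 25.5%). The next lowest was GET4 (-0.97), and the highest were CAMLG (0.28) and ASNA1 (0.02). TMEM208 was within 2-fold relative to all genes (-0.69). In the multipass translocon, which works beside SEC61 on proteins with many transmembrane segments, NCLN (-1.44) and CCDC47 (-1.02) were at least 2-fold lower of 8 (25%, background 25.5%). NOMO1 (1.38) was at least 2-fold higher (12.5%, background 8.44%), while NOMO2 had 0.91 and NOMO3 0.48. NOMO1, NOMO2 and NOMO3 are near-identical and their single values are uncertain, although all had ratios above 0. Relative to all genes CCDC47 was within 2-fold (-0.66), and NCLN (-1.08) alone was lower (12.5%, background 16.0%). With the GC trend removed it was the other way round. NCLN was then within 2-fold (-0.50) and CCDC47 (-1.01) alone was lower (12.5%, background 13.9%). Relative to all genes 3 (37.5%, background 14.7%) were higher, NOMO1 (1.74), NOMO2 (1.27) and TMCO1 (1.15). Because NOMO1 and NOMO2 are near-identical, they may not be separate cases in that count. With the GC trend removed 2 (25%, background 13.2%) were higher, NOMO1 and NOMO2, and TMCO1 had 0.72.

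**Figure D5:**
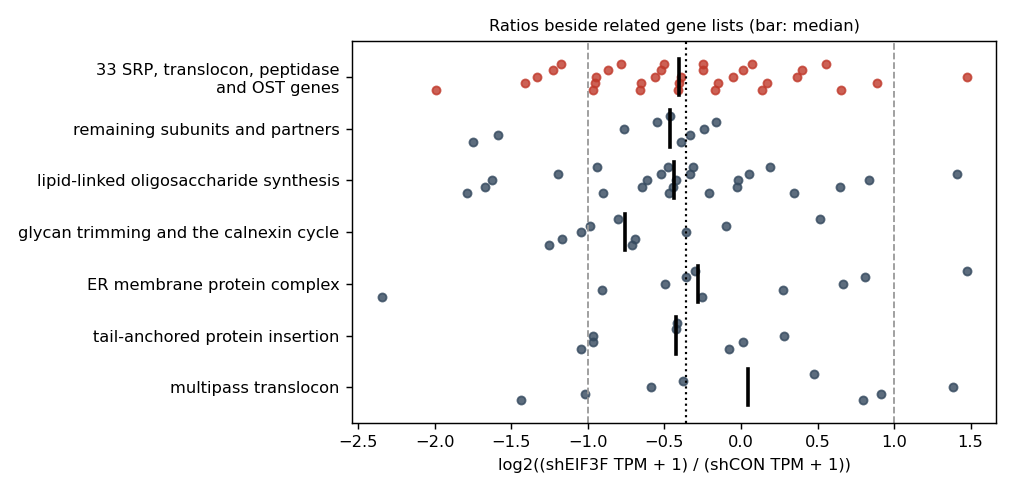
Log2 ratios, shEIF3F over shCON, of the 33 genes (red) and of the 69 related genes in 6 lists (dark), each point a gene and each bar a list median, with dashed lines at 2-fold and a dotted line at the median of all genes tested. The list medians lie between -0.76 (glycan trimming and the calnexin cycle) and 0.05 (multipass translocon), and that of the 33 genes is -0.40.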

How the data were processed

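Total RNA was isolated with Trizol and sequenced as Illumina TruSeq libraries, per the labels' protocols. The authors deposited 1 TPM value per gene and library, with 2 decimals. CASAVA and HISAT2 (no versions) and hg19 come from the submitters' processing notes. How genes were counted, with which annotation and strand setting, is not given in the sources used here.

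Entries that repeat a symbol (1533 of 58884) were summed, and 27 date-like symbols and 5553 symbols of small RNA genes were left out. Depth is unknown, so values have no counting interval. Log2 ratios used a pseudocount of 1 and genes that averaged at least 1 TPM, and 1 or -1 was a fixed rule of size, not a test. GENCODE 29 (GRCh38) gave gene type, exon overlap, pseudogene names and GC content of the longest transcript (known for 98.5% of genes), and no coordinates from it were used. Promoter windows are from RefSeq.

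The members and lists were chosen with earlier results of these data known. Named are all members, EIF3F and the 2 highest and 2 lowest ratios of each related list. HSPA5, CALR, CANX, ALG12, ALG10B, OST4, NOMO3, SRP9P1, EMC1, TMCO1 and the overlapping genes were named after their values were seen. Alternatives were pseudocounts of 0.1 and 5, other filters, centring, rescaling, 1 entry per symbol and removal of the GC trend in 20 bins. Sums with pseudogenes and members with no shared exon were added after seeing the data. Python 3.11.15, NumPy 2.4.6, pandas 2.3.3 and matplotlib 3.10.9 were used, and the ratio calculation was tested on simulated data.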

Additional observations from a re-analysis of the deposited data

How the results depend on the processing

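The counts of members at least 2-fold lower (5) and higher (1) and the median of -0.40 depended on the scaling. They were 2, 3 and -0.046 after centring on the median of all genes, and 1, 3 and 0.024 after rescaling without the 100 most abundant genes. The shift follows from the construction of both steps, which move all ratios up by a median of 0.36 and 0.38. Removal of the GC trend gave 6 lower, 1 higher and a median of -0.21, on a scale where the median of all genes is 0, so the list lay further from all genes than after centring. Among the 18 members that share no exon with another gene, 3 were lower and 0 higher, because SRP19, STT3A and SRPRB share exons. For the 69 related genes (13 lower, 3 higher), centring and rescaling each gave 7 lower (10.1%) and 9 higher (13.0%). The backgrounds were 16.0% and 14.7% after centring, and 16.1% and 14.8% after rescaling. Removal of the GC trend gave 9 lower (13.0%, background 13.9%) and 6 higher (8.70%, background 13.2%). A pseudocount of 5, for which no background was computed, gave 6 lower and 2 higher. MAGT1 (-2.21 to -1.41) and SRP19 (1.30 to 1.90) were past 2-fold under every alternative run on single members. Of 295 single-member values under the alternatives, 277 stayed on the same side of 2-fold, 9 came short of it, 9 newly passed it, and none that had passed it changed sign. Many of the 277 could not change. A filter leaves a ratio as it is (33 values without a filter, 31 with a mean of 5 TPM or more). Each member has 1 entry, so the 33 values from 1 entry per symbol were fixed too. The sum with pseudogenes altered only SRP9, SSR4 and OSTC. The 277 are thus no measure of stability. SRP9, within 2-fold, turned positive when summed with its pseudogene. Other members within 2-fold also had ratios on both sides of 0 among the alternatives. These were SSR4 (-0.51 to 0.43), DDOST, RPN2, STT3B, SRP72, SSR3, SPCS2, TRAM1 and SEC61A2. No paired analysis was possible because each group has 1 library. Unknown read depth limits SEC61A2, SEC62, SEC63 and MAGT1 most, since they have the lowest TPM in shEIF3F.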
